A study of Mus musculus with 12 samples.

Results

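Nppb, Acta1, Fhl1 and Rcan1 are transcripts commonly read as markers of stress and hypertrophic growth in the ventricle, and their levels were compared across ribosome-bound and total RNA of wild-type hearts and hearts without Rpl3l. The genes were picked by name, 4 of the 55401 gene IDs of each count table, and all 4 were among the 6596 genes with enough counts to be tested. Each had counts in all 12 libraries. The libraries came from adult hearts of wild-type (WT) mice and of Rpl3l-/- (KO) mice, which lack the striated muscle paralog of the ribosomal protein gene Rpl3. IP libraries hold RNA from HA-tagged ribosomes, pulled down with an anti-HA antibody after treatment of the excised heart with cycloheximide, a drug that stalls translating ribosomes. Input libraries hold total RNA of heart homogenates. Each of the 4 groups (WT Input, KO Input, WT IP, KO IP) had 3 biological replicates, made into poly(A)-enriched nanopore direct cDNA libraries and sequenced in multiplex on a MinION. Input RNA was purified with TRIzol and IP RNA on RNeasy columns, so the purification method and the fraction cannot be told apart. The labels give no strain, sex or age beyond adult, and do not say which cells carry the tag or whether both fractions were taken from one heart.

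A heart under load enlarges its muscle cells and switches on a set of genes that are active in the fetal heart. Nppb encodes B-type natriuretic peptide, a hormone that ventricular and atrial muscle cells secrete under wall stretch and that lowers blood volume and pressure. Acta1 encodes skeletal alpha-actin, a fetal actin of the heart that the adult mouse ventricle raises in hypertrophy. Fhl1 encodes a LIM-domain protein that binds titin in the sarcomere and takes part in stretch sensing. Rcan1 encodes a regulator of the phosphatase calcineurin, and 1 of its transcripts is itself switched on by the calcineurin target NFAT.

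All 4 are protein-coding genes in the GENCODE M21 annotation of mouse build GRCm38. Nppb (ENSMUSG00000029019.8) lies on the plus strand at chr4:147985788-147987205, with 1 coding transcript of 781 bases. Its 3′ end is 13516 bases from the start of Nppa, the gene of atrial natriuretic peptide. Acta1 (ENSMUSG00000031972.5) lies on the minus strand at chr8:123891769-123894751, with a longest coding transcript of 1446 bases. Fhl1 (ENSMUSG00000023092.16) covers chrX:56731787-56793346 on the plus strand, with 9 coding transcripts, the longest of 2770 bases. Rcan1 (ENSMUSG00000022951.16) covers chr16:92391953-92470867 on the minus strand, with 5 coding transcripts, the longest of 2324 bases. The deposited counts are per gene, so transcripts of a gene were not told apart.

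Because ribosomes start at the AUG codon, the bases around it are shown for the principal transcript of each gene and of Nppa, with the start codon in capitals.
Nppb: ttctgcggcATGgat
Nppa: cacgccagcATGggc
Acta1: ctagacaccATGtgc
Fhl1: gtgggcaccATGtcg
Rcan1: aaaagcagaATGcat
All 5 have a purine at the third base before the start codon, and the base after the codon is G in both natriuretic peptide genes and not in the others. Both features together occur in 47.2% of tested genes with an annotated principal transcript.

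The Nppb message is also marked by repeats of ATTTA in its 3′ untranslated region, the core of AU-rich elements that shorten the life of many mRNAs. A stretch of 30 bases that begins 81 bases after the stop codon holds 5 copies, in capitals, several of them overlapping.
Nppb 3′ stretch: tgatcctATTTATTTATTTATTTAtATTTA
The whole untranslated region of 227 bases holds 6 overlapping or separate copies, or 26.4 per kilobase. Of 6446 tested genes with such an annotation, 18.0% hold at least as many copies and 0.0621% (4 genes) hold them at such a density, against a median of 1.33 per kilobase. Fhl1 has 1 copy in 1348 bases, and Acta1, Rcan1 and Nppa have none. A match is a description of the sequence, not a measured effect on these transcripts.

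The stretch before the RefSeq start of Acta1 is shown since Acta1 is a textbook target of serum response factor (SRF), whose pathway genes are counted below. It covers chr8:123894776-123895025 on the minus strand (GRCm38.p6).
Acta1 promoter: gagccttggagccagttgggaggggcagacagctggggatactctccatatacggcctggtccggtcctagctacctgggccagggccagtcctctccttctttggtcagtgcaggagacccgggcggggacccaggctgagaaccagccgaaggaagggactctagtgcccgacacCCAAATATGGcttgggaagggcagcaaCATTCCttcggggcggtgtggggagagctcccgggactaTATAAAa
Capitals mark a CArG box, the SRF motif, 73 to 64 bases before the start, a CATTCC (TEAD factors) 46 to 41 bases before it and a TATAAA 7 to 2 bases before it. These distances are to the RefSeq start at 123894775. The GENCODE principal transcript begins further downstream, at 123894751, so all 3 motifs lie further from its first base. Searched on both strands of 250 bases before 32851 RefSeq starts, a CArG box occurred in 1.47%, CATTCC in 12.6% and TATAAA in 12.4%. For Rcan1 the inner start is shown, the one beside the first base of its principal transcript, known as the start of the NFAT-driven isoform, at chr16:92400079-92400328 on the minus strand.
Rcan1 inner promoter: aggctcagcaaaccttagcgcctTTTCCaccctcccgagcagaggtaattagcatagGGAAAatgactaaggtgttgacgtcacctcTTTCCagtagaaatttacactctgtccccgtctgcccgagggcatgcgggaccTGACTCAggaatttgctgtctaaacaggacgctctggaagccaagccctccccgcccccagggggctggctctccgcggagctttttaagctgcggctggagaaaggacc
Capitals mark 3 copies of GGAAA, the core of NFAT motifs (TTTCC where it is on the other strand), and a TGACTCA, the AP-1 motif. GGAAA occurred, in any number of copies, in 55.6% of all such windows and TGACTCA in 4.46%. None of the marked matches overlap, and GATAA, the core of GATA motifs (22.6% of windows), was searched for as well without a match in either window. A stretch of 138 bases before Nppb and 250 bases before the outer Rcan1 start held none of these motifs. The 250 bases before an inner Fhl1 start held only a GGAAA, on the other strand. Counts of Rcan1 add transcripts of its inner and outer starts together.

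The libraries held 169359 (KO Input replicate 3) to 710868 counts (KO IP replicate 2), and 3 counts stand for 4.22 to 17.7 CPM, the usual scale of counts relative to the library total. The KO Input libraries (291040, 289594 and 169359 counts) were all shallower than every other library (356705 or more), so depth goes with genotype in Input. The label check was met, since Rpl3l was 5.50-fold lower in KO than in WT Input (adjusted p 1.77e-05) and 57.4-fold lower in IP (adjusted p 9.27e-12). The KO libraries held 18, 7 and 9 counts of it in Input and 1, 2 and 5 in IP, so the size of the IP value is loose. Globin transcripts took 17.2% of the counts of WT IP replicate 2 and 13.8% of those of WT Input replicate 3, and 1.70% to 6.97% in the others. Heart muscle markers, Myh6 among them, summed to between 46519 and 58087 CPM in every library, and 12 skeletal muscle markers to between 19.0 and 73.9 CPM. The samples thus carry heart and little skeletal muscle RNA. In such bulk samples, fewer cells of a type and less RNA per cell cannot be told apart. Levels below are CPM after TMM scaling, given as mean ± SD. Fold changes, standard errors (SE) and adjusted p are from edgeR's quasi-likelihood test over all 6596 genes, with 0.05 as threshold.

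Nppb had the widest range of the 4 genes between groups as a ratio of group means. It fell on ribosomes relative to total RNA in both genotypes, and its difference between KO and WT had opposite signs in the fractions without passing the test in either. The WT Input libraries held 608, 513 and 490 CPM (537 ± 62.5, from 244, 208 and 146 counts). The KO Input libraries held 853, 728 and 767 CPM (783 ± 64.0, from 224, 189 and 135 counts). Every KO Input library lay above every WT Input library. The WT IP libraries held 380, 209 and 157 CPM (249 ± 117, from 257, 122 and 89 counts). The KO IP libraries held 231, 173 and 96.4 CPM (167 ± 67.5, from 99, 132 and 58 counts). The IP groups overlapped each other, and all 6 IP libraries lay below all 6 Input libraries. In WT 18.2% of tested genes, and in KO 15.6%, had every IP library below every Input library. From high to low the order was KO Input, WT Input, WT IP and KO IP, and only the last neighbours overlapped.

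In total RNA, Nppb was 1.46-fold higher in KO than in WT (log2 fold change 0.54, SE 0.25, 95% interval 0.03 to 1.05, adjusted p 0.676). None of the 4 genes passed in this comparison, where 0.182% of all tested genes did and 7.11%, Nppb among them, had an unadjusted p under 0.05. KO libraries all above WT libraries were seen in 6.17% of tested genes. The Nppb value kept its sign in 17 alternatives, between 0.46 and 0.63, and none of them called it. Nppa, the neighbouring gene, had 2941 ± 226 CPM in WT Input and 4058 ± 1109 CPM in KO Input, or 0.47 more on the log2 scale (SE 0.26, adjusted p 0.740), with overlapping groups. All 7 atrial markers had positive values in this comparison (median 0.32, against -0.01 over all tested genes) and none passed the test. Summed, they held 6877 to 8948 CPM in WT Input and 8342 to 12014 CPM in KO Input, and the 6 other than Nppa held 4125 to 5757 and 5415 to 6872 CPM, with overlapping groups in both cases. Their part in the Nppb value was not tested.

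On ribosomes, Nppb was 1.52-fold lower in KO than in WT (log2 fold change -0.61, SE 0.26, 95% interval -1.15 to -0.07, adjusted p 0.920). None of the 4 genes passed here, against 0.091% of all tested genes. Nppb and Acta1 were among the 5.20% with an unadjusted p under 0.05. The size rests largely on WT IP replicate 1, the highest IP library for Nppb, without which the log2 fold change was -0.16. Without KO IP replicate 3 it was -0.32.

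The test of whether the genotype difference itself differs between fractions, the interaction, gave -1.15 for Nppb on the log2 scale (SE 0.36, 95% interval -1.89 to -0.41). It ranked 58 of 6596 genes by p, with adjusted p 0.425, and lay among the 7.02% of genes with an unadjusted p under 0.05, while 0.091% passed. With no count filter the same test gave adjusted p 0.0126. The sign was the same under 22 alternatives, between -1.42 and -0.70, the value nearest 0 being the one without WT IP replicate 1. Nppa had a like value of -1.14 (SE 0.39, adjusted p 0.529). Acta1 (-0.21, SE 0.42), Fhl1 (-0.24, SE 0.32) and Rcan1 (-0.03, SE 0.39) had values within their error of 0.

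**Figure D1:**
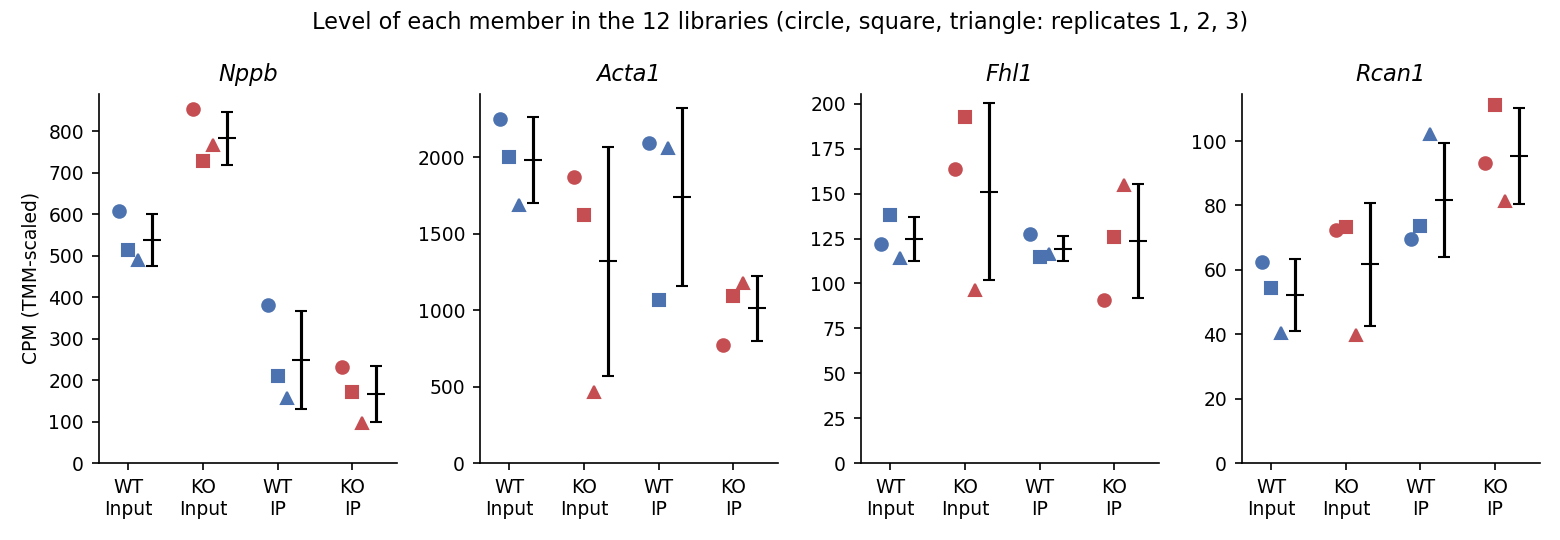
Level of Nppb, Acta1, Fhl1 and Rcan1 in CPM (vertical axes, from 0, a scale of its own for each gene) in WT (blue) and KO (red) Input and IP libraries. Each marker is 1 library and the bar beside them is the mean ± SD of 3. Nppb lies at 490 to 853 CPM in Input and 96.4 to 380 CPM in IP, and KO Input replicate 3 stands low for Acta1 at 466 CPM.

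Between fractions, Nppb fell 2.15-fold on WT ribosomes relative to total RNA (log2 fold change -1.10, SE 0.25, adjusted p 0.00359) and 4.76-fold on KO ribosomes (-2.25, SE 0.26, adjusted p 9.84e-07). It was the 1 of the 4 genes that passed here in either genotype. Of all tested genes 14.0% passed in WT and 16.4% in KO, 8.67% and 9.78% in the lower direction. Nppa fell further, from 2941 to 224 ± 114 CPM in WT (13.2-fold, adjusted p 3.88e-09) and from 4058 to 139 ± 51.5 CPM in KO (29.0-fold, adjusted p 1.42e-10). All 7 atrial markers fell in IP in both genotypes, with medians of -3.64 and -3.56 on the log2 scale, where the median of all tested genes was 0.02 and 0.01. Summed, they held 331 to 1146 CPM in the IP libraries against 6877 to 12014 CPM in Input, and Bmp10 was at 0 in WT IP. The atrial sum and Nppb had opposite orders among the WT IP libraries and the same order among the KO IP libraries. In WT IP the sum was 410 CPM in replicate 1, where Nppb was highest, 481 in replicate 2 and 1146 in replicate 3, where Nppb was lowest. In KO IP it was 1057 CPM in replicate 1, where Nppb was highest, 727 in replicate 2 and 331 in replicate 3, where Nppb was lowest.

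Nppb is also short, longer than only 3.82% of the principal transcripts of tested genes. Genes of 56 to 832 bases, the shortest of 20 equal bins, had a median log2 IP to Input ratio of -0.48 in WT and -0.63 in KO. With the trend over length removed in each library, the Nppb fall lost its call in WT (log2 fold change -0.56, adjusted p 0.150) and kept it in KO (-1.67). The part of atrial cells in the Nppb values was not tested.

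**Figure D2:**
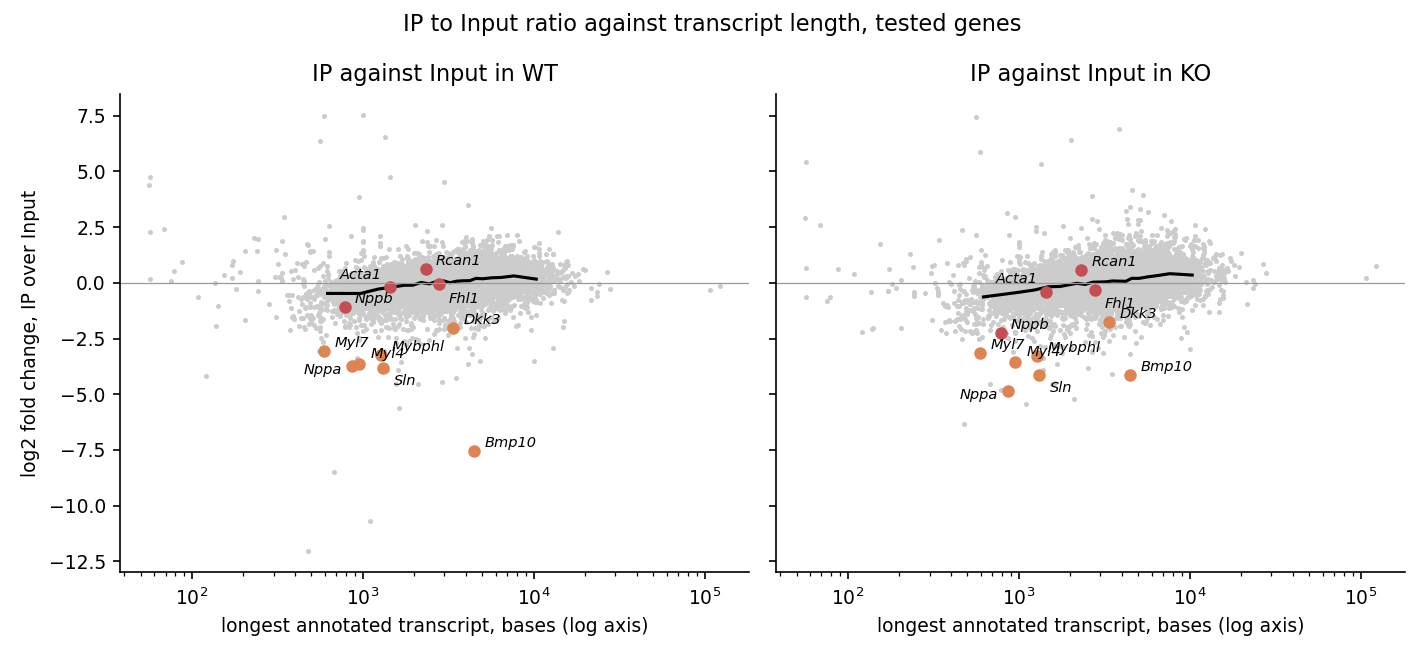
Log2 fold change of IP over Input (vertical axis) against the length of the longest annotated transcript in bases (log axis) for tested genes (grey), in WT (left) and KO (right). The black line joins the medians of 20 equal bins of genes, red points are the 4 genes and orange points the atrial markers. Nppb lies below the line at -1.10 and -2.25, the atrial markers lie lower than Nppb at a median of -3.64 and -3.56 (Dkk3 in KO excepted), and Rcan1 lies above the line. The value of Bmp10 in WT is a fitted one against a group at 0.

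Acta1 was the most abundant of the 4 by mean CPM in all 4 groups, and per kilobase in 3 of the 4 groups. It also had the widest spread within a group. The WT Input libraries held 2246, 2002 and 1689 CPM (1979 ± 279, from 901, 812 and 503 counts). The KO Input libraries held 1870, 1622 and 466 CPM (1319 ± 749, from 491, 421 and 82 counts). Replicate 3 of KO Input, the shallowest library, stood far below every other Input library. The WT IP libraries held 2093, 1067 and 2058 CPM (1740 ± 582, from 1414, 623 and 1169 counts). The KO IP libraries held 772, 1090 and 1177 CPM (1013 ± 213, from 331, 833 and 708 counts). The order of the means was WT Input, WT IP, KO Input and KO IP, and each group overlapped its neighbours.

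In Input, Acta1 was 1.49-fold lower in KO than in WT (log2 fold change -0.57, SE 0.30, 95% interval -1.19 to 0.05, adjusted p 0.724), and without KO Input replicate 3 the value was -0.18. That library also held 3 counts of Myh7 (17.0 CPM), the slow beta-myosin that rises with Acta1 in the fetal programme, where the other KO Input libraries held 282 and 358 CPM. On ribosomes Acta1 was 1.71-fold lower in KO (log2 fold change -0.78, SE 0.30, 95% interval -1.39 to -0.16, adjusted p 0.889). WT IP replicate 2, the library richest in globin, lay among the KO values, and without it the log2 fold change was -1.04. With no count filter the adjusted p of the same comparison was 0.00301, the only setting among 17 that called it. Between fractions Acta1 had log2 fold changes of -0.19 in WT (SE 0.30, adjusted p 0.730) and -0.39 in KO (SE 0.30, adjusted p 0.413). The KO value passed without KO Input replicate 3 (-0.78, adjusted p 0.0232).

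Reads of Acta1 and of other actin genes carry an uncertainty of their own. Actc1, the cardiac alpha-actin that makes up most sarcomeric actin of the adult heart, is listed at 0 in all 12 libraries, as are Malat1 and mt-Co1. The coding sequences of Acta1 and Actc1 share 977 of 1134 bases (86.2%), and the rule for reads that match both genes is not stated in the labels or files used here. Gm20388, annotated on the opposite strand across Acta1, had counts only in the libraries richest in globin, 31 in WT IP replicate 2 and 22 counts in WT Input replicate 3. Of the 5 other actin genes listed, 4 were tested and none differed by genotype, and the one with the smallest p was Actg1, cytoplasmic gamma-actin, in Input (log2 fold change 0.43, SE 0.20, adjusted p 0.676). Actg1 fell on KO ribosomes (-1.05, SE 0.20, adjusted p 0.000662). Counts listed under Actg2, smooth muscle gamma-actin, rose there (0.64, SE 0.19, adjusted p 0.0228), a call lost without 4 of the 6 KO libraries in turn (adjusted p up to 0.132). In WT Input Actg2 was at 2208 CPM, above Acta1 at 1979 CPM, while Acta2, smooth muscle alpha-actin, was at 142 CPM. Whether reads of Actc1 were counted under Actg2 was not tested. The Actg1 value in Input was 0.14 without KO Input replicate 2.

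Fhl1 was the steadiest of the 4 genes between groups. It had 122, 138 and 114 CPM in WT Input (125 ± 12.2, from 49, 56 and 34 counts). KO Input had 164, 193 and 96.6 CPM (151 ± 49.3, from 43, 50 and 17 counts). WT IP had 127, 115 and 116 CPM (119 ± 6.85, from 86, 67 and 66 counts). KO IP had 91.0, 126 and 155 CPM (124 ± 31.8, from 39, 96 and 93 counts). All 4 groups overlapped, and no order could be read among them. KO against WT gave log2 fold changes of 0.30 in Input (95% interval -0.20 to 0.80, adjusted p 0.843) and 0.07 in IP (-0.37 to 0.50, adjusted p 0.998). IP against Input gave -0.07 in WT (-0.53 to 0.39, adjusted p 0.879) and -0.31 in KO (-0.78 to 0.17, adjusted p 0.404). Differences of the sizes within these intervals remain possible, and at this depth such differences can go uncalled. Fhl2, the LIM-domain relative that the heart expresses most, was near 1175 CPM per kilobase in WT Input, where Fhl1 was at 45.1. Without the division by length, Fhl2 was at 1836 CPM and Fhl1 at 125 CPM there. The log2 fold changes of Fhl2 between genotypes were 0.16 in Input and -0.05 in IP.

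Rcan1 was the rarest of the 4 and the one with higher values in IP. It had 62.3, 54.3 and 40.3 CPM in WT Input (52.3 ± 11.1, from 25, 22 and 12 counts). KO Input had 72.4, 73.2 and 39.8 CPM (61.8 ± 19.1, from 19, 19 and 7 counts). WT IP had 69.6, 73.7 and 102 CPM (81.8 ± 17.7, from 47, 43 and 58 counts). KO IP had 93.3, 111 and 81.4 CPM (95.3 ± 14.97, from 40, 85 and 49 counts). In each genotype every IP library lay above every Input library, as was the case for 16.4% of tested genes in WT and 15.2% in KO. The log2 fold changes were 0.62 in WT (SE 0.27, adjusted p 0.136) and 0.59 in KO (SE 0.28, adjusted p 0.170), and no alternative called either. Both were among the 27.8% (WT) and 29.4% (KO) of tested genes with an unadjusted p under 0.05. Rcan2, a relative with the same inhibitory motif, rose on ribosomes by a like amount, 0.61 in WT (SE 0.17, adjusted p 0.0150) and 0.65 in KO (SE 0.18, adjusted p 0.0130). It was called in 13 of 17 alternatives in WT and 14 of 17 in KO, with adjusted p up to 0.10 and 0.0615. Between genotypes Rcan1 differed by 0.26 in Input (95% interval -0.39 to 0.92, adjusted p 0.908) and 0.23 in IP (-0.26 to 0.73, adjusted p 0.985). Rcan2 differed by -0.23 and -0.19, neither passing.

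**Figure D3:**
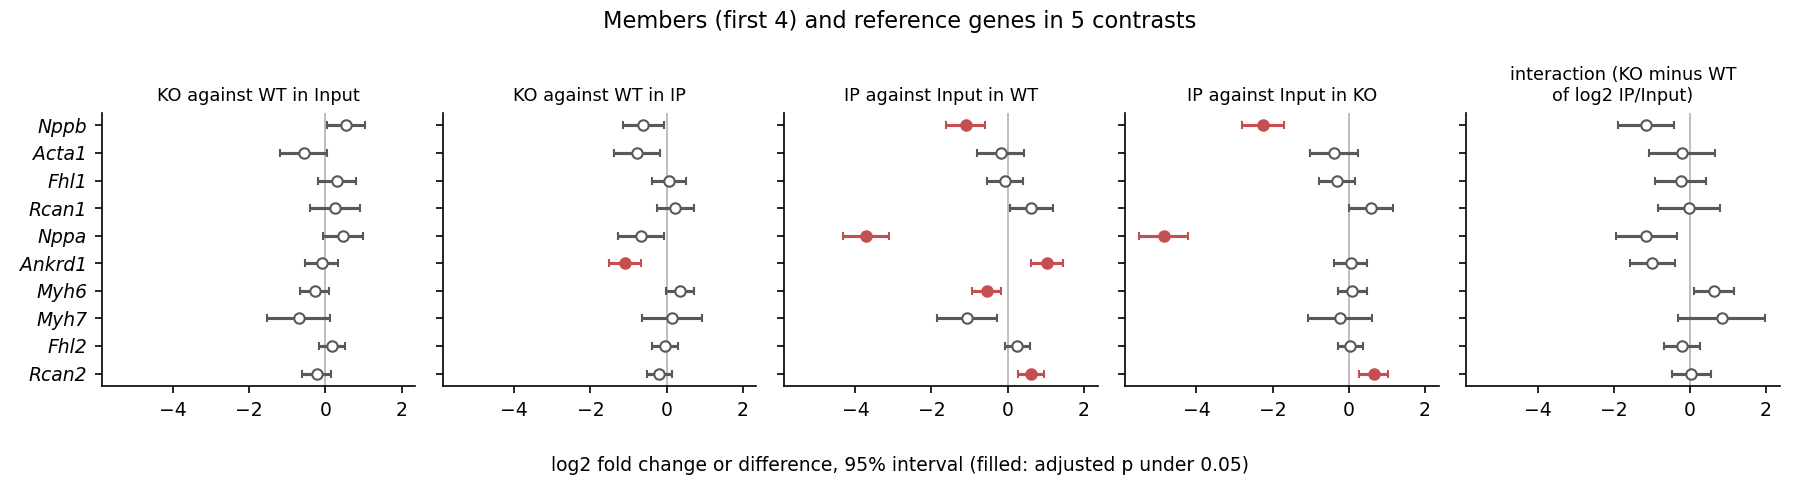
Log2 fold changes with 95% intervals (horizontal axis) of Nppb, Acta1, Fhl1, Rcan1 and 6 related genes in the genotype and fraction comparisons and their interaction. Filled red points passed the adjusted threshold of 0.05. Among the 4 genes, only Nppb passed, in both fraction comparisons (-1.10 and -2.25), and Ankrd1 alone of those drawn passed between genotypes, in IP (-1.08).

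Per kilobase of transcript, the order of the 4 genes was Acta1 (1369 CPM per kilobase), Nppb (688), Fhl1 (45.1) and Rcan1 (22.5) in WT Input. In KO Input Nppb (1002) and Acta1 (912) changed places, with a spread of Acta1 wide enough to cover both. The change comes from the division by length, since in CPM Acta1 (1319) led Nppb (783) there, as in the other groups. Whether counts of these nanopore libraries grow with transcript length was not tested. In WT IP the values were 1203, 319, 43.1 and 35.2 in the order Acta1, Nppb, Fhl1, Rcan1, and in KO IP they were 701, 213, 44.7 and 41.0. On this scale Fhl1 and Rcan1 lay close to each other on ribosomes. In CPM they were at 119 and 81.8 in WT IP and at 124 and 95.3 in KO IP.

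The wider list of cardiac stress and hypertrophy genes, which holds all 4, had 22 of 26 members tested. Between genotypes 1 of the 22 rose in Input and none fell, where 0.182% of all tested genes passed, and 1 fell in IP and none rose, where 0.091% passed. The medians were -0.01 and -0.11 against -0.01 and 0.00 over all tested genes. The gene that rose was Ccn2, a secreted matrix protein of stretched and fibrotic hearts (by 1.39 on the log2 scale, SE 0.28, adjusted p 0.0288), and the one that fell was Ankrd1, a nuclear and sarcomeric stress protein (-1.08, SE 0.20, adjusted p 0.0245). Both calls depended on single libraries and on the processing. Adjusted p reached 0.265 for Ccn2 (without KO Input replicate 2) and 0.626 for Ankrd1 (without WT IP replicate 1). Ccn2 was called in 11 of 17 alternatives, and the stricter count filter also ended its call (adjusted p 0.0529). Ankrd1 was called in 12 of 17, and library totals also ended its call (adjusted p 0.0925). Myh6, the fast myosin that falls in hypertrophy, had log2 fold changes of -0.28 in Input and 0.35 in IP, and Myh7 had -0.70 and 0.14, none of them past the threshold. Between fractions 3 of the 22 rose and 5 fell in WT, where 14.0% of all tested genes passed, and 1 rose and 7 fell in KO, where 16.4% passed. Nppa and the atrial light chain Myl4 (-3.64 in WT and -3.56 in KO) fell most. Ankrd1 rose on WT ribosomes (1.03, SE 0.20, adjusted p 0.000946).

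In the natriuretic peptide pathway, 10 of 16 genes were tested, and the gene of the C-type peptide (Nppc) was at 0. No gene passed between genotypes in either fraction. All 10, Nppa and Nppb among them, had positive values in Input, with a median of 0.54 against -0.01 over all tested genes. Whether the list differs as a whole was not tested. Ide, a protease that degrades natriuretic peptides, had the smallest p there (0.84, SE 0.33, adjusted p 0.592). The value rests on KO Input replicate 3 (182 CPM, against 57.1 and 80.9 in the other KO libraries) and was 0.29 without it. In IP, 4 of the 10 values were positive, the median was -0.06, and Pcsk6, the protease that activates the Nppa convertase corin, had the smallest p (0.67, SE 0.23, adjusted p 0.826). Pcsk6 rose on ribosomes relative to total RNA, by 1.35 in both WT (SE 0.29, adjusted p 0.00252) and KO (SE 0.29, adjusted p 0.00181). Its Input counts were low, 11, 15 and 10 in WT and 12, 12 and 12 in KO. Nppa and Nppb fell, and the other 7 did not pass. That made 3 of 10 in each genotype, against 14.0% and 16.4% of all tested genes.

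In the calcineurin and NFAT pathway around Rcan1, 20 of 29 genes were tested and none passed between genotypes, with medians of -0.04 in Input and 0.03 in IP. The smallest p belonged to Gsk3b, a kinase that sends NFAT out of the nucleus, in Input (-0.87, SE 0.34, adjusted p 0.586) and to Calm3, a calmodulin gene, in IP (0.29, SE 0.18, adjusted p 0.965). Between fractions, Rcan2 and the NFAT kinase gene Dyrk1a (0.85, SE 0.28, adjusted p 0.0402) rose in WT and Myoz2, a Z-disc protein that restrains calcineurin, fell (-0.80, SE 0.16, adjusted p 0.00111), 3 of 20 where 14.0% of all tested genes passed. Dyrk1a was called in 8 of 17 alternatives (adjusted p up to 0.167), and Myoz2 was nearer to 0 with the length trend removed (-0.45 in WT). In KO, 3 rose, among them Gsk3b (1.30, SE 0.32, adjusted p 0.00551) and the calcineurin subunit gene Ppp3ca (0.88, SE 0.23, adjusted p 0.00880), and 2 fell, against 16.4% of all tested genes. Gsk3b had only 10, 8 and 9 counts in KO Input. Removing the length trend ended the Gsk3b call (adjusted p 0.0551), and Ppp3ca lost it without KO Input replicate 1 or 2 (adjusted p 0.0600 and 0.0569).

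Among FHL and stretch-sensing genes around Fhl1, 15 of 19 were tested. None passed in Input, where Ankrd23, a titin-binding ankyrin repeat protein, had the smallest p (-0.53, SE 0.20, adjusted p 0.557), and Ankrd1 alone passed in IP. The medians were 0.14 in Input and -0.16 in IP. Between fractions Mybpc3, cardiac myosin-binding protein C, rose in WT (1.14, SE 0.17, adjusted p 3.15e-05) and in KO (0.58, SE 0.17, adjusted p 0.0207). Ankrd23 fell in both (-0.87 and -0.97, adjusted p 0.00313 and 0.00216). Those were 3 of 15 in WT with Ankrd1 and 2 of 15 in KO, against 14.0% and 16.4% of all tested genes. The Mybpc3 call in KO was lost without KO IP replicate 1, KO Input replicate 1 or KO Input replicate 2 (adjusted p 0.0833, 0.0625 and 0.0702), and the Ankrd23 call in WT without the libraries richest in globin (0.0563).

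Among genes of the SRF and myocardin axis, which switches on Acta1, 12 of 17 were tested and none passed between genotypes, with medians of -0.19 in Input and 0.01 in IP. Myocd, the cofactor myocardin, had the smallest p in both (-1.94, SE 0.70, adjusted p 0.526 in Input, and 1.20, SE 0.42, adjusted p 0.826 in IP). Srf itself rose on ribosomes in WT (1.66, SE 0.32, adjusted p 0.000763) and in KO (1.20, SE 0.34, adjusted p 0.0146), from 12, 17 and 6 counts in WT Input and 14, 9 and 7 in KO Input. Lmod2, an actin nucleator of thin filaments, fell in WT (-0.87, SE 0.16, adjusted p 0.000521) and in KO (-1.29, SE 0.17, adjusted p 5.57e-06), as did Pfn1, profilin, by 1.06 and 1.03 on the log2 scale (adjusted p 0.000410 and 0.000736). With the length trend removed, the Pfn1 values were -0.56 in WT (adjusted p 0.0407) and -0.49 in KO (0.0781). Tmsb4x, thymosin beta 4, fell in WT (-0.70, SE 0.21, adjusted p 0.0228), and Myocd rose in KO (2.83, SE 0.63, adjusted p 0.00263), from 7, 2 and 0 counts in KO Input. Tmsb4x was called in 11 of 17 alternatives and was -0.20 once the trend over length was taken out (adjusted p 0.469), and Myocd lost its call with limma-voom (adjusted p 0.181). Srf in KO lost its call without KO Input replicate 2 (0.0894). The called genes were 4 of 12 in each genotype, against 14.0% and 16.4% of all tested genes. No member of these lists passed the interaction test.

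**Figure D4:**
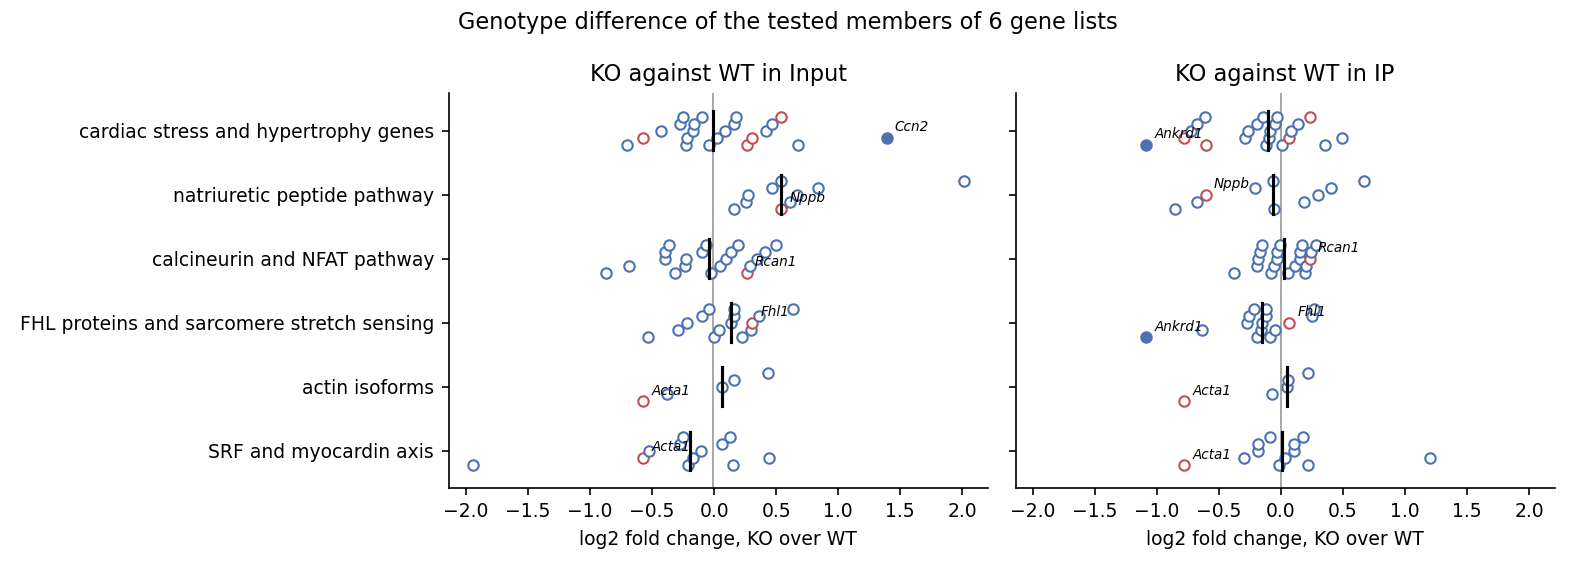
Log2 fold change of KO over WT (horizontal axis) for the tested genes of 6 lists, in Input (left) and IP (right). Each circle is a gene, red for Nppb, Acta1, Fhl1 and Rcan1, filled where the adjusted p was under 0.05, the black bar is the list median and the grey line the median of all tested genes. Ccn2 in Input and Ankrd1 in IP are the only filled circles. The natriuretic peptide genes, none of which passed, lie right of 0 in Input with a median of 0.54, against -0.01 for all tested genes.

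Likeness of pattern was measured as Pearson's r of log2 CPM over the 12 libraries, among 3028 genes of at least 50 CPM on average. The libraries differ in fraction, genotype and depth, and these differences enter r. Nppb was most like Gpx4 (r = 0.94), Serf2 (0.94) and 2410015M20Rik (0.92), and had r = 0.90 with Nppa. Acta1 was most like Gm9762 (0.89), Smpdl3a (0.88) and Mrpl21 (0.88), and had r = 0.88 with Myh7, a pair that KO Input replicate 3 lowers together. Fhl1 was most like Rnaset2a (0.86), Actr10 (0.85) and Tmem70 (0.79). Rcan1 was most like Ube2l3 (0.91), 2610507B11Rik (0.89) and Tbl1xr1 (0.89). The 4 genes did not share 1 pattern, with r = 0.12 between Nppb and Acta1, 0.52 between Acta1 and Fhl1 and -0.66 between Nppb and Rcan1.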

How the data were processed

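The count files, as the authors deposited them, hold 1 whole-number read count per gene and library, with 55401 Ensembl gene IDs each. Per the submitters' processing notes, minimap2 2.14, DESeq2 1.34.0 and build GRCm38 were used, and the counting rule and treatment of shared reads are not given in the sources used here. IDs were matched to GENCODE M21, 55141 without their version and 54349 with it, and 38803 genes were 0 in every library. Promoter sequences are from RefSeq (GRCm38.p6, all 4 genes matched by symbol), and transcript sequences are from GENCODE M21.

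Counts were tested with edgeR 4.0.16 (R 4.3.3, limma 3.58.1) in 1 quasi-likelihood model with 1 mean for each of the 4 groups over all 12 libraries. Genes passed filterByExpr (minimum count 10, minimum total 15), CPM was scaled by TMM, and p-values were adjusted by Benjamini-Hochberg within each comparison. The biological coefficient of variation was 18.2%. The SE is the log2 fold change divided by the square root of F. With 3 libraries against 3, an exact permutation test cannot go below 0.10, so no such test is given. Library totals of 169359 to 710868 counts set the precision. The test was tried on simulated data with 1 coefficient of variation for all genes and no outlier libraries. Such data cannot show how it behaves with the outlier libraries here.

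The 4 genes and the gene lists were chosen with earlier results of these data known. Named genes are the 4 genes and Nppa, Myh6, Myh7, Ankrd1, Actc1, Fhl2, Rcan2 and Rpl3l. Added to these are, per list and comparison, up to 4 called genes with the smallest p, or for genotype comparisons with none the 1 with the smallest p, and the 3 genes most like each gene. Malat1, mt-Co1, Nppc, Gm20388, Bmp10 and Dkk3 were named after their values were seen. Alternatives were DESeq2 1.42.0 size factors and test, library totals, no or a stricter count filter (30 counts in 3 libraries), limma-voom, fits of only the compared libraries, a replicate block, globin genes left out, a length trend removed (loess, span 0.5) and each library left out. Leaving out the 2 libraries richest in globin was added after the data were seen.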

Additional observations from a re-analysis of the deposited data

Results flagged for a closer look

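For Rpl3l, the deleted gene, the interaction of genotype and fraction was -3.38 on the log2 scale (SE 0.52, edgeR adjusted p 0.00538), so its genotype difference was larger on ribosomes than in total RNA. The value rests on 1, 2 and 5 counts in KO IP and 18, 7 and 9 counts in KO Input. The call was lost with limma-voom (adjusted p 0.376) and without KO Input replicate 1 (adjusted p 0.0503), 2 of 22 alternatives. None of Nppb, Acta1, Fhl1 and Rcan1 passed the same test.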

How the results depend on the processing

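For Nppb, Acta1, Fhl1 and Rcan1, 339 of 360 values under other settings kept their direction and their side of the threshold. Nppb lost its call in IP against Input of WT with the length trend removed (-0.56) and gained one in the interaction with no count filter (-1.11). Acta1 gained calls in KO against WT in IP with no count filter (-0.78) and in IP against Input of KO without KO Input replicate 3 (-0.78, range over libraries left out -0.78 to -0.064). Other changes were of sign in values near 0. Acta1 in IP against Input of WT was 0.041 with the length trend removed (range over libraries left out -0.32 to 0.069), and its interaction was 0.034 with limma-voom (range -0.60 to 0.12). Fhl1 in IP against Input of WT was 0.023 with library totals and 0.0055 with no count filter (range -0.13 to 0.011), and in KO against WT in IP the range was -0.12 to 0.22. The Rcan1 interaction was 0.029 with library totals, 0.015 with no count filter, 0.0044 with the length trend removed and 0.041 without the libraries richest in globin (range -0.22 to 0.16). Among related genes, Ankrd1 in KO against WT in Input had a range of -0.41 to 0.045. In KO against WT in IP, Fhl2 was 0.062 with library totals and 0.016 without the libraries richest in globin (range -0.13 to 0.058), and Myh7 was -0.097 without those libraries (range -0.14 to 0.44). Of the other named genes' values, 16 lost and 3 gained a call under these settings, and 39 lost one with a library left out. The cause of these changes was not tested.

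Called genes numbered 12 in KO against WT in Input, 77 with no count filter and 5 with the stricter one (range over libraries left out 4 to 17). In IP the 6 became 55 with no count filter, 10 with DESeq2 and 3 without the libraries richest in globin (range 2 to 7). IP against Input called 926 in WT, 424 without those libraries (range 601 to 686), and 1083 in KO (range 739 to 997). The interaction called 6, 37 with no count filter, 1 with limma-voom and 1 without those libraries (range 1 to 8). Library totals shifted the median of all tested genes by 0.15 in IP against Input of KO, 0.11 in KO against WT in IP and 0.09 in IP against Input of WT.

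No pairing of libraries by replicate number was seen. Same-numbered libraries had correlations between -0.115 and 0.0423, and 0 of 12 correlated best with their own number. The KO against WT values among them set different mice side by side and cannot show a pairing of fractions. The IP against Input values lay between -0.0414 and -0.00408, and with 3 shallow libraries per group a pairing could go unseen. With the replicate number as a block, Nppb had log2 fold changes of 0.55 in KO against WT in Input, -0.57 in IP, -1.17 and -2.28 between fractions and -1.11 in the interaction, and the calls numbered 15, 8, 858, 1009 and 4. Depth limits Rcan1 most, with 7 counts in KO Input replicate 3.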
